A study of Homo sapiens with 2 samples.

Results

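Aminoacyl-tRNA synthetases are the enzymes that join each amino acid to its tRNA, and their mRNAs were examined among the RNA that co-precipitated with LRPPRC, an RNA-binding protein of mitochondria and cytoplasm. The 36 genes were chosen by name, 20 for cytosolic and 16 for mitochondrial enzymes (symbols ending in 2), out of 16770 named genes in the table. All 36 were found under the listed symbols, each with a single row, and each reached FPKM 1 in both libraries. RNA immunoprecipitation with an anti-LRPPRC antibody was done on wild-type A549 cells, a human lung adenocarcinoma line grown without treatment, and 2 libraries of this condition were sequenced. The series description calls them technical replicates whereas the paper calls them biological, so the spread between them may be technical only. FPKM, fragments per kilobase of transcript scaled to the number of mapped fragments, gives the level of an mRNA in the precipitate. It was not divided by the level in the cell, because neither input nor IgG samples were analysed here, and more cells with an mRNA cannot be told apart from more of it per cell. Since there is 1 condition, no conditions were compared and no test was run.

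Each synthetase recognises its own amino acid and tRNAs, and belongs by the fold of its catalytic domain to class I or class II. Human cells keep separate sets for the cytosol and for mitochondria, both encoded in the nucleus, while GARS and KARS serve both compartments from a single gene. In the cytosol, EPRS, IARS, LARS, MARS, QARS, RARS, KARS and DARS are assembled with scaffold proteins into the multisynthetase complex. LRPPRC is best known for keeping mitochondrially encoded mRNAs stable, and the mRNAs described here are made in the nucleus.

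The libraries resembled each other across the 11370 genes that averaged FPKM 1 or more, with a Spearman's rho of 0.99 and, on the log2 scale, a Pearson's r of 0.993. Genes are not independent replicates. The FPKM of all rows added up to 196627 in replicate 1 and to 194839 in replicate 2, and the sequencing depth is unknown. Of the epithelial genes looked up to check the label, the keratins KRT8 and KRT18 had means of 337 and 51.1 FPKM, whereas CDH1 and EPCAM had 1.33 and 0.430. The endothelial gene PECAM1 and the fibroblast gene COL1A1 had 0.192 and 0.696 FPKM.

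The mRNAs of cytosolic synthetases stood high in LRPPRC RIP and those of mitochondrial synthetases mostly did not. The mean FPKM was above 30, the threshold of the study, for 15 of the 36 members (41.7%), against 13.6% of the 10441 named genes that reached FPKM 1 in both libraries and 8.46% of all 16770 named genes. These were 14 of the 20 cytosolic members (70.0%) and 1 of the 16 mitochondrial members (6.25%). The same 15 genes were above 30 in each library taken alone. The median was 46.5 FPKM for cytosolic members and 4.70 FPKM for mitochondrial members, beside 6.81 FPKM for those 10441 genes. By mean FPKM, all 20 cytosolic members and 6 of the 16 mitochondrial members lay above the median of those 10441 genes. In replicate 1 alone, HARS (6.81 FPKM) and VARS2 (6.80 FPKM) lay just below the median of that library, 6.83 FPKM. In replicate 1 the cytosolic and mitochondrial medians were 47.3 and 4.92 FPKM, and in replicate 2 they were 45.6 and 4.58 FPKM. The ratio of the medians was 9.88. It was 5.64 when FPKM was multiplied by the length of the canonical transcript, which approximates the share of fragments. Members are not replicates of a condition, so these medians and counts carry no test. Together the cytosolic mRNAs took 0.571% of all FPKM in replicate 1 and 0.557% in replicate 2, and the mitochondrial ones 0.0677% and 0.0660%.

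**Figure D1:**
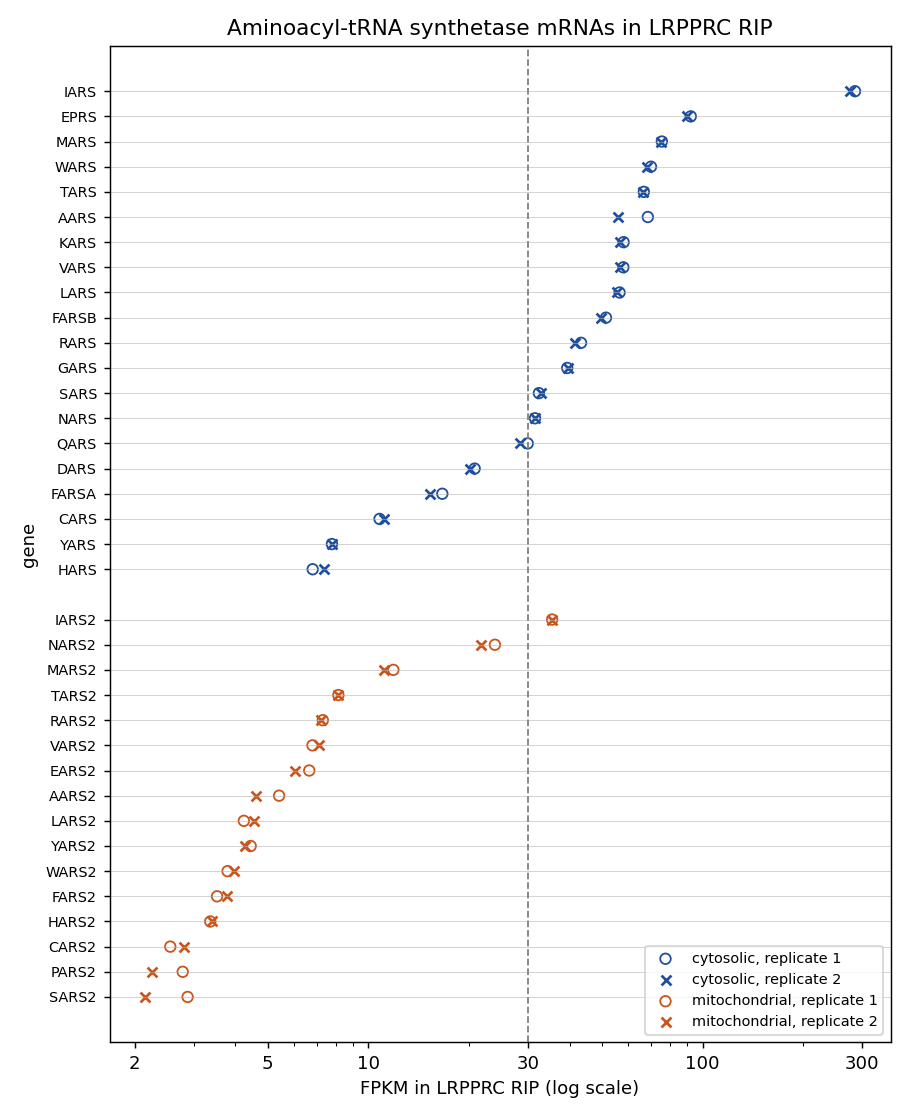
Levels in LRPPRC RIP (x axis, FPKM, log scale) of the 20 cytosolic (blue, above) and 16 mitochondrial (orange, below) synthetase genes (y axis), with circles for replicate 1, crosses for replicate 2 and a dashed line at FPKM 30. IARS stands apart at the top with 286 and 276 FPKM, and IARS2 is the single mitochondrial member to the right of the dashed line.

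**Figure D2:**
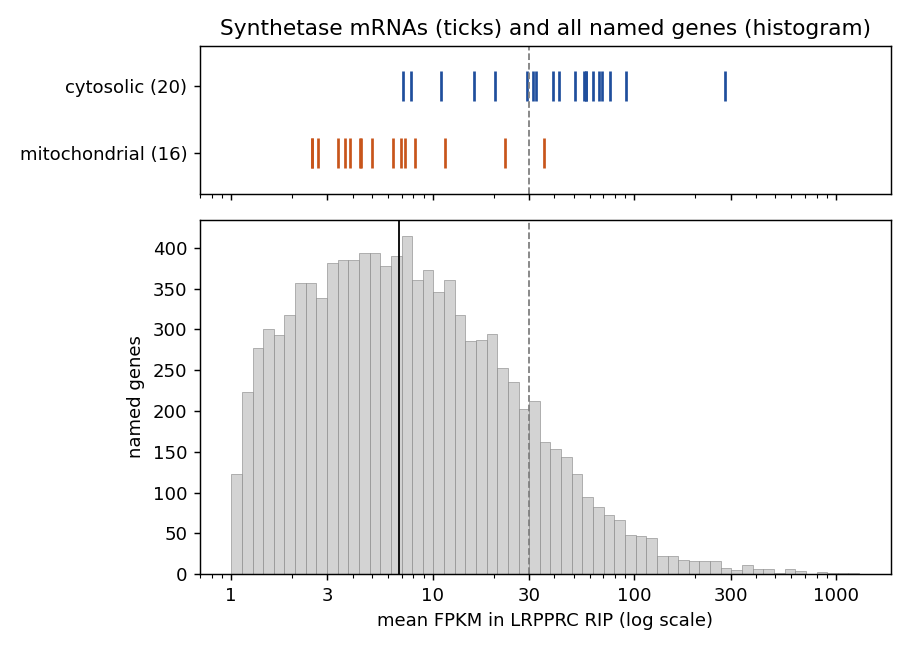
Mean level (x axis, FPKM, log scale) of the cytosolic (blue ticks) and mitochondrial (orange ticks) synthetase mRNAs, above a histogram of the 10441 named genes that reached FPKM 1 in both libraries (y axis, number of genes). The dashed line is FPKM 30 and the solid line is the median of all these genes, 6.81, which all 20 cytosolic and 6 mitochondrial members exceed.

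IARS, the isoleucyl-tRNA synthetase of the cytosol, had the highest level of the 36. Its mRNA had 286 FPKM in replicate 1 and 276 FPKM in replicate 2, a mean of 281 ± 7.08 (SD, n = 2). This placed it at rank 52 of the 10441 named genes and above the mRNA of LRPPRC itself, which had 184 and 176 FPKM. IARS was 3.10 and 3.07 times EPRS, the next member, in replicates 1 and 2, and alone made up 25.5% and 25.4% of the FPKM total of the 20 cytosolic members. The gene (now IARS1) lies on chromosome 9 of GRCh38 from 92210207 to 92293854 on the minus strand. Its canonical transcript has 34 exons and 4483 bases, of which 3786 are coding. The small nucleolar RNA gene SNORA84 and the microRNA gene MIR3651 lie within it on the same strand, outside the exons of the canonical transcript, and whether their reads entered the value was not tested. Multiplied by transcript length, IARS was again the highest member (1259 FPKM times kb, against 442 for EPRS).

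The other members of the multisynthetase complex ranged widely. EPRS, which charges both glutamate and proline, had 92.2 and 89.8 FPKM in replicates 1 and 2. MARS, which also charges the initiator tRNA with methionine, had 75.5 and 75.3 FPKM. KARS, for lysine, had 58.0 and 56.8 FPKM. These were followed by LARS, for leucine, with 56.4 and 55.6 FPKM, and RARS, for arginine, with 43.3 and 41.4 FPKM. QARS, for glutamine, had 29.97 and 28.4 FPKM and lay just below the threshold. DARS, for aspartate, was the lowest of the 8 with 20.8 and 20.1 FPKM. The order of the 8 mRNAs was the same in both libraries. Their median was 56.7 FPKM and 6 of 8 were above 30, while the 12 cytosolic members outside the complex had a median of 36.02 FPKM with 8 above 30.

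The mRNAs of the scaffolds that hold the complex together were low. AIMP1 had 3.50 and 3.04 FPKM, AIMP2 had 3.56 and 3.70, and EEF1E1 (also called AIMP3) had 3.83 and 4.50. All 8 synthetases of the complex were above all 3 scaffolds in both libraries, and DARS, the lowest synthetase, was 4.91 times EEF1E1, the highest scaffold, by mean FPKM. The scaffold mRNAs lay below 6.81 FPKM, the median of the 10441 named genes that reached FPKM 1 in both libraries, and above 2.48 FPKM, the median of all 16770 named genes.

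Outside the complex, 8 members were between 31.5 and 69.2 FPKM by mean, and 4 were lower. WARS, the tryptophanyl enzyme that interferon induces, had 70.1 and 68.2 FPKM in replicates 1 and 2. TARS, for threonine, had 66.7 and 66.4 FPKM. AARS, for alanine, had 68.6 FPKM in replicate 1 and 55.9 FPKM in replicate 2, so that its place among its neighbours was not fixed. VARS, for valine, had 57.9 and 56.6 FPKM. GARS, for glycine, had 39.3 and 39.6 FPKM, SARS, for serine, had 32.4 and 32.8, and NARS, for asparagine, had 31.5 in each library. Phenylalanyl-tRNA synthetase is built of alpha and beta subunits, and their mRNAs were unequal. FARSB, the beta subunit, had 51.4 and 49.8 FPKM, against 16.6 and 15.3 FPKM for FARSA, the alpha subunit, a ratio of 3.09 and 3.26. The size of this difference depends on the length taken. Multiplied by the canonical transcript lengths (6761 and 1811 bases), FARSB had 342 and FARSA 28.9 FPKM times kb. CARS, for cysteine, had 10.8 and 11.2 FPKM and YARS, for tyrosine, 7.78 in each library.

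HARS, for histidine, was the lowest cytosolic member, with 6.81 and 7.37 FPKM. It is the neighbour of HARS2, which had 3.36 and 3.41 FPKM, and the genes start close together on chromosome 5 and are transcribed away from each other. By RefSeq (GRCh38.p14) the start sites are at 140691370 for HARS, on the minus strand, and at 140691455 for HARS2, on the plus strand. The 84 bases between them, at chr5:140691371-140691454, are shown because this cytosolic and mitochondrial pair has its starts side by side. They are written from HARS to HARS2 on the plus strand, with the 9 CpG dinucleotides in capitals, and G and C make up 59.5% of them.
HARS to HARS2: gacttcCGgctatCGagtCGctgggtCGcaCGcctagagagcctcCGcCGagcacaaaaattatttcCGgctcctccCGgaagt
The canonical transcripts of HARS and HARS2 align over 1312 bases with 78.5% identity. Other protein-coding genes reach into exons of both transcripts (WDR55 for HARS, ZMAT2 and, by GENCODE, HARS itself for HARS2). Whether reads of these genes entered the values was not tested. The libraries were made with a kit that keeps the strand, but whether the strand was used when genes were quantified was not given in the sources used here. This bears on HARS and HARS2 and on MARS, YARS and AARS2, whose exons lie under genes of the opposite strand. EARS2 and SARS2 have exons that the span of a protein-coding gene of their own strand reaches. All these overlaps were taken from the whole span of the other gene, so shared exonic sequence was not shown.

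Among mitochondrial members, IARS2 and NARS2 stood above the rest. IARS2, the isoleucyl enzyme of mitochondria, had 35.5 FPKM in each library and was the single mitochondrial member above 30. It lies on chromosome 1 from 220094132 to 220148041. NARS2, for asparagine, had 23.9 and 21.7 FPKM, so IARS2 was 1.48 and 1.63 times as high in replicates 1 and 2. MARS2, a gene with a single exon over which a long noncoding RNA of the same strand also lies, had 11.9 and 11.1 FPKM. TARS2 had 8.13 and 8.09 FPKM, RARS2 7.30 and 7.23, and VARS2 6.80 and 7.10. The span of a long noncoding RNA of the same strand also reaches exons of VARS2. Whether reads of these noncoding RNAs entered the values of MARS2 and VARS2 was not tested. The isoleucyl mRNA was thus the highest in both compartments.

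The other 10 mitochondrial mRNAs lay between 2.51 and 6.35 FPKM by mean, below the 6.81 FPKM median of the 10441 filtered genes and above the 2.48 FPKM median of all 16770 named genes. They were EARS2 (glutamate), AARS2 (alanine), LARS2 (leucine), YARS2 (tyrosine), WARS2 (tryptophan), FARS2 (phenylalanine), HARS2, CARS2 (cysteine), PARS2 (proline) and SARS2 (serine). All 10 were lower than HARS, the lowest cytosolic member, in every library. At the bottom of the list, PARS2 had 2.78 and 2.26 FPKM and SARS2 2.88 and 2.15, and the libraries of these genes overlapped. At the other end, 12 cytosolic members were above IARS2 in both libraries. Between these limits the 2 sets interleaved, and NARS2, for example, was above DARS, FARSA, CARS, YARS and HARS.

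When each mitochondrial mRNA was set beside the cytosolic mRNA for the same amino acid, the cytosolic mRNA was higher in all 16 pairs, with no overlap between the libraries. FARS2 was set beside the mean of FARSA and FARSB, and both EARS2 and PARS2 beside EPRS, so these pairs share a gene. The ratio of cytosolic to mitochondrial mean FPKM had a median of 8.22 and ran from 1.38 to 36.1. It was highest for proline, where EPRS had 92.2 and 89.8 FPKM against 2.78 and 2.26 FPKM for PARS2. For tryptophan, WARS was 17.8 times WARS2. For isoleucine, where both mRNAs were high, IARS was 7.92 times IARS2. It was at least 2 times in both libraries in 14 pairs, and below that for tyrosine (YARS over YARS2, 1.79) and asparagine (NARS over NARS2, 1.38). For asparagine, NARS had 31.5 FPKM in each library against 23.9 and 21.7 FPKM for NARS2. With FPKM multiplied by transcript length the cytosolic mRNA was still higher in 16 of 16 pairs, with ratios from 1.52 for asparagine to 74.6 for proline. On that scale the ratio was 1.65 for histidine, against 2.03 and 2.16 by FPKM in replicates 1 and 2. For tyrosine it was 2.06, so which pairs fell below 2 depended on the measure.

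**Figure D3:**
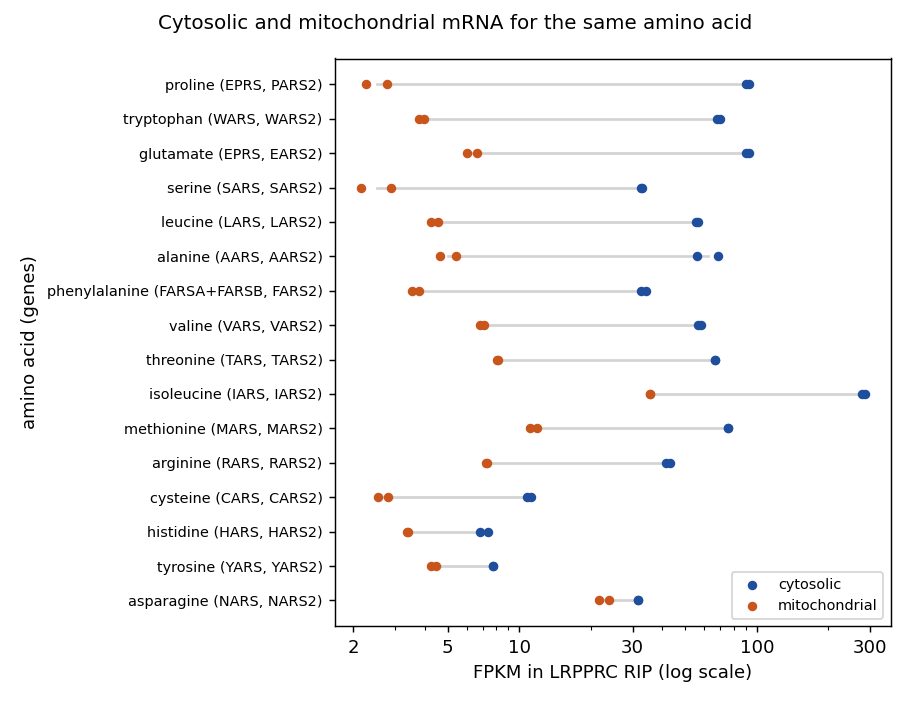
Levels in LRPPRC RIP (x axis, FPKM, log scale) of the cytosolic (blue) and mitochondrial (orange) mRNA for the same amino acid (y axis, 16 pairs ordered by ratio), with a point for each library and a gray line between the means. In every pair the blue points lie to the right, by 36.1 times for proline and by 1.38 times for asparagine.

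Across the 16 pairs the cytosolic and mitochondrial levels had a Spearman's rho of 0.38, and the points share the libraries and, for glutamate and proline, a gene. Level and length of the canonical transcript had a rho of 0.52 over the 20 cytosolic and 0.53 over the 16 mitochondrial members, and the median length was 2704.5 bases for cytosolic and 2619.5 bases for mitochondrial transcripts. By enzyme class, 6 of 9 cytosolic class I mRNAs and 7 of 10 cytosolic class II mRNAs were above 30, with medians of 56.0 and 36.02 FPKM. EPRS holds a domain of each class and was left out. Among mitochondrial members the class I median was 6.35 FPKM over 9 genes and the class II median 3.65 FPKM over 7 genes.

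The libraries differed little for these mRNAs. The median absolute log2 ratio of (FPKM + 1) between replicates 1 and 2 was 0.05 over the 36 members and 0.05 over the 10441 named genes that reached FPKM 1 in both libraries. It was 0.04 for cytosolic and 0.08 for mitochondrial members. Over the 7205 named genes within the range of mean levels of the mitochondrial members it was 0.05. A difference of more than 1.2 times, a limit chosen after the values were seen, was found in 3 of 36 members, against 8.42% of the 10441 genes. The 3 were AARS (ratio of replicate 1 to 2, 1.23), PARS2 (1.23) and SARS2 (1.34), all higher in replicate 1. When the 36 members were ordered by mean, 9 of the 35 neighbouring pairs overlapped between libraries, among them TARS and AARS, AARS and KARS, KARS and VARS, and RARS2 and HARS. The steps from IARS to EPRS, EPRS to MARS and IARS2 to its neighbours did not overlap.

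**Figure D4:**
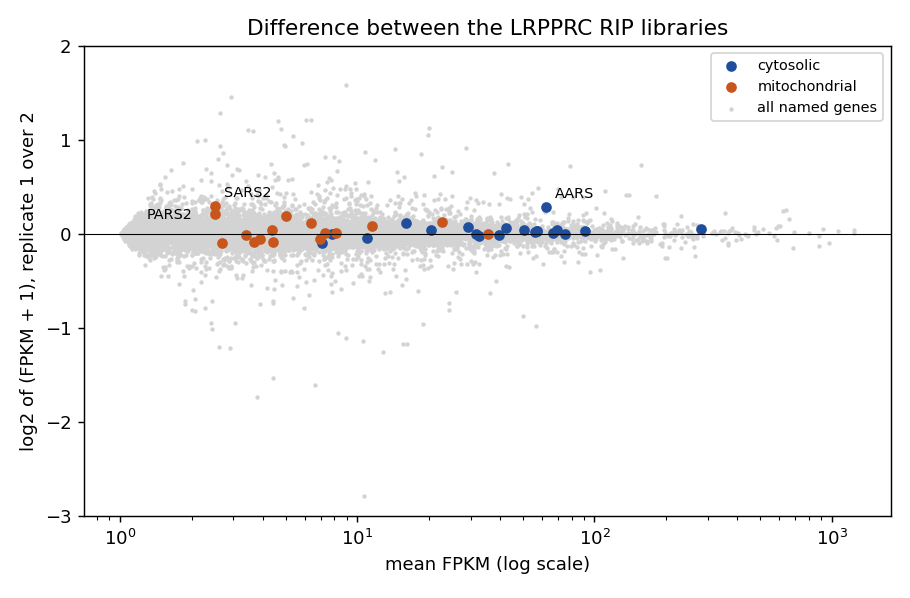
Log2 ratio of (FPKM + 1) between replicate 1 and replicate 2 (y axis) against mean level (x axis, FPKM, log scale) for cytosolic (blue) and mitochondrial (orange) synthetase mRNAs and the 10441 named genes that reached FPKM 1 in both libraries (gray). AARS, PARS2 and SARS2, the 3 members that differed by more than 1.2 times, are named and lie above 0.

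Other genes that make, repair or use charged tRNA were mostly lower than the cytosolic synthetases. Mitochondria lack a glutaminyl enzyme and instead amidate glutamate on the tRNA with the products of QRSL1, GATB and GATC. QRSL1 had 7.16 and 6.90 FPKM, GATB 3.60 and 3.22, and GATC 3.49 and 4.24, within the range of the mitochondrial synthetases. Of 8 other charging and editing factors none was above 30, against 13.6% of the 10441 filtered genes and 8.46% of all 16770 named genes. A count of 0 among 8 genes cannot be told apart from these shares. DTD1, which removes D-amino acids from tRNA, came closest with 29.1 and 30.4 FPKM. The others, TRNT1, SEPSECS, AARSD1, TARSL2, DALRD3, MTFMT and PSTK, lay between 0.353 and 3.75 FPKM by mean. The elongation factors that carry charged tRNA to the ribosome also differed, with 677 and 570 FPKM for the cytosolic EEF1A1 against 20.3 and 20.2 FPKM for the mitochondrial TUFM.

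Many cytosolic synthetase genes are known targets of ATF4, the transcription factor that answers a lack of amino acids. ATF4 mRNA had 17.96 and 18.9 FPKM. None of the 8 genes of the amino acid response was above 30. The share was 13.6% of the 10441 named genes that reached FPKM 1 in both libraries and 8.46% of all 16770. With 8 genes, a count of 0 cannot be told apart from these shares. Their median was 10.6 FPKM, beside 6.81 FPKM for the 10441 genes. ASNS, asparagine synthetase, had 21.0 and 21.8 FPKM, and PSAT1, of serine synthesis, had 19.1 and 17.6. TRIB3, CHAC1, SLC7A11 and PHGDH lay between 3.31 and 13.5 FPKM by mean. DDIT3, the transcription factor CHOP, was the lowest with 0.842 and 1.37. DDIT3 lies over the end of MARS on the opposite strand.

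The element bound by ATF4 with C/EBP proteins was looked for in the promoters as TGATGNAA on both strands. RefSeq windows of 300 bases (GRCh38.p14, 250 before the start site and 50 from it on) were used. They covered 30 of the 36 members, without DARS, LARS, VARS, YARS, AARS2 and VARS2. These 30 members had 39 windows, and a gene was counted if any of its windows held the element. It was found in 7 of 16 cytosolic members with a window (43.8%) and in 1 of 14 mitochondrial members (7.14%, YARS2), beside 4.46% of all 27305 genes with a window. With C at the open base, TGATGCAA, it was in 6 of 16 cytosolic (37.5%), 0 of 14 mitochondrial and 1.08% of all genes. The 27305 genes were not matched to the members in gene type or number of windows. These windows describe the genes and not the precipitated RNA, and a match is not shown to be a site. The 6 matches are printed because they are what part of the cytosolic set shares and no mitochondrial window holds. The plus strand carries MARS and TARS and the minus strand the other genes, each is written in the direction of its gene, and capitals mark the element, which reads TTGCATCA where it lies on the other strand. They lie at chr9:92293677-92293736 (IARS), chr16:70289660-70289719 (AARS), chr12:57488053-57488082 (MARS), chr5:33440956-33440985 (TARS), chr18:57621804-57621833 (NARS) and chr11:3057407-3057436 (CARS).
IARS: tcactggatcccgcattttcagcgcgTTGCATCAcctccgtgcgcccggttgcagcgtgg
AARS: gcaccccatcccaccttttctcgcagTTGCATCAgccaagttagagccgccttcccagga
MARS: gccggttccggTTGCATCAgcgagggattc
TARS: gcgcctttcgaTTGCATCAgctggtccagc
NARS: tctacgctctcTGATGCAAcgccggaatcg
CARS: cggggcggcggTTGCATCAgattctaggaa
With the RefSeq start site as position 0, the first capital lies at -13 in IARS, -187 in AARS, -4 in MARS, 2 in TARS, 14 in NARS and -2 in CARS. By GENCODE all 6 elements lie within the span of their own gene, so these positions depend on the start site taken. These 6 genes had 5 mRNAs above 30 FPKM and a median of 64.4 FPKM. The other 10 cytosolic genes with a window had 7 above 30 and a median of 40.9 FPKM. Among these 10 is GARS, which holds TGATGNAA but not TGATGCAA. Whether the element bears on the level in LRPPRC RIP was not tested. CARS, with the element, had 10.8 and 11.2 FPKM, while EPRS, with no match in its window, had 92.2 and 89.8.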

How the data were processed

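RIP-seq values of A549 cells were taken from the table of FPKM per gene and library that the authors deposited. By the paper's methods and the tools in the submitters' processing notes, the authors trimmed reads with cutadapt 1.18, aligned them to GRCh38 with HISAT2 2.1.0 and quantified genes with StringTie 1.3.3b against an Ensembl annotation, and the table carries older symbols such as AARS for AARS1. Of 21262 rows, 4460 were added by assembly and 16802 carry a name, and for names with several rows the row with the higher mean was kept. No whole reads could be recovered from low values. Of 5405 genes with a mean below 0.3 FPKM, no more than 76 (1.41%) had the same log2 ratio between libraries to within 0.02, so the depth and the precision it gives are unknown. Mean and SD over the libraries, counts above FPKM 30, ranks and ratios were computed, with no test, since there is 1 condition. All 36 members are named, and companion genes by function.

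The members and lists were chosen with earlier results of these data known. Of the 36 members, 18 were matched to GENCODE 44 by symbol and 18 by the symbol ending in 1, and transcript lengths are from this later annotation. In the genome, 4 members had a stretch of at least 100 bases with at least 95% identity outside their own locus (blastn 2.17.0), each no more than 5.26% of the transcript. Other protein-coding genes lie over an exon of 7 members, and although the library kit was stranded (SMARTer Stranded Total RNA-Seq Kit), the use of strand in counting was not given in the sources used here. Python 3.11.15, pandas 2.3.3, numpy 2.4.6, matplotlib 3.10.9 and samtools 1.23.1 were used. Alternatives were thresholds of 20 and 50 FPKM, single libraries, pseudocounts, filters, scaling by length and sum, and changed lists. The counting functions were tested on simulated data.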

Additional observations from a re-analysis of the deposited data

How the results depend on the processing

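The counts of all and of cytosolic members above FPKM 30 kept within 1.5 times of 15 and 14 in every alternative, from 10 to 18 and from 10 to 16. The count of mitochondrial members was 2 at FPKM 20 and 0 at FPKM 50. The ratio of the cytosolic to the mitochondrial median was 9.61 to 9.95 with a single library, 5.64 with FPKM multiplied by transcript length, 8.31 with a pseudocount of 1 on the log2 scale and, as an alternative chosen after seeing the data, 9.00 without IARS. The cytosolic median was 42.3 FPKM without IARS, an alternative also chosen after seeing the data. The pairs with the cytosolic mRNA higher numbered 14 when a ratio of at least 2 in both libraries was asked for. Leaving out GARS and KARS did not move the cytosolic median. No paired analysis was possible because both libraries belong to 1 condition. With depth unknown, the spread of 2 libraries is the sole measure of error for low mRNAs such as PARS2 and SARS2.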
